A study of Arabidopsis thaliana with 8 samples.

Results

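A set of 108 array probe sets had their lowest signal in seedlings of the gbf1 hy5 double mutant, with wild type, gbf1 and gbf1 hyh seedlings all higher. They were chosen by their values, out of 22746 probe sets other than the AFFX controls. Both gbf1 hy5 arrays had to lie at least 0.4 log2 below the lowest of the other 6 arrays, and the gbf1 hyh mean had to lie within 0.3 log2 of the wild type mean. Of 174 probe sets with that gap, 110 met the second condition, and 2 of these were then left out by name (the plastid gene psaJ and the auxin-conjugating enzyme gene GH3.3). The gbf1 hyh mean was too low in 45 of the others with the gap and too high in 19. Of the 108 members, 47 have a single gene in the probe table, 3 have several and 58 have no gene, so the exclusions by name could not be applied to those 58. Among all 22746 probe sets, 13513 have a single gene, 503 have several and 8730 have none. Members without a gene are thus a larger share than among all probe sets, and what is said of genes leaves them out.

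The arrays were hybridised with total RNA of whole Arabidopsis thaliana seedlings, 1 array for each of 2 biological replicates per genotype. The genotypes were gbf1 hy5, gbf1 hyh, gbf1 and wild type (Col-0); all 3 mutants carry gbf1, and a Col-0 background is stated for wild type alone. No source used here names the mutant alleles, and what a mutation did cannot be told apart from any difference in background. Seedlings were sampled at an age of 4 days. After 4 days of cold at 4 °C they had grown at 22 °C under continuous white light (20 µmol per m² per s), with 1% sucrose in the medium.

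HY5 is a bZIP transcription factor that promotes seedling development in light. It is degraded in darkness through the ubiquitin ligase COP1, and in light it binds promoter elements with an ACGT core and raises or lowers the transcription of genes for pigments, photosynthesis and growth. HYH is its closest relative and can form dimers with it. GBF1 is a G-box binding factor of the bZIP family that binds DNA elements of the same kind. In hy5 mutants the hypocotyl is long in light, and chlorophyll and anthocyanin are reduced.

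Array values are on the log2 scale and are centred, so that 0 is the median of a probe set over the 8 arrays; comparisons are differences of genotype means on that scale. With no level left, genes cannot be compared in abundance and markers cannot show which organs a sample held. Because the whole seedling was sampled, less RNA per cell and fewer cells of a type cannot be told apart. The 45 bacterial and phage control probe sets had a mean of 0.81 on the second gbf1 array and of 0.74 on the second gbf1 hyh array, while the other 6 arrays lay between -0.27 and 0.21. Neither of these 2 high arrays is a gbf1 hy5 array, but both enter the choice of members, and without them the same rule takes 163 probe sets, 91 of them among the 108. The probe table ties no probe set to GBF1 or HY5 alone. HYH was at -1.01 and -0.85 in gbf1 hy5, -2.03 and -1.78 in gbf1 hyh, 1.69 and 1.94 in gbf1, and 1.08 and 0.85 in wild type.

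The median signal over the 108 was -0.87 and -0.84 on the gbf1 hy5 arrays, 0.0070 and -0.0049 on the gbf1 hyh arrays, 0.20 and 0.10 on the gbf1 arrays, and 0.030 and 0.11 on the wild type arrays. The median over all probe sets lay between -0.015 and 0.0086 on every array. The mean of the gbf1 hy5 arrays lay below the mean of the other 6 by a median of 0.97 over the members, with single differences between -4.11 and -0.58. Against wild type alone, 46 members were lower by 2-fold or more and 4 of these by 4-fold or more. These differences are what chose the members, and no test is given for them.

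**Figure D1:**
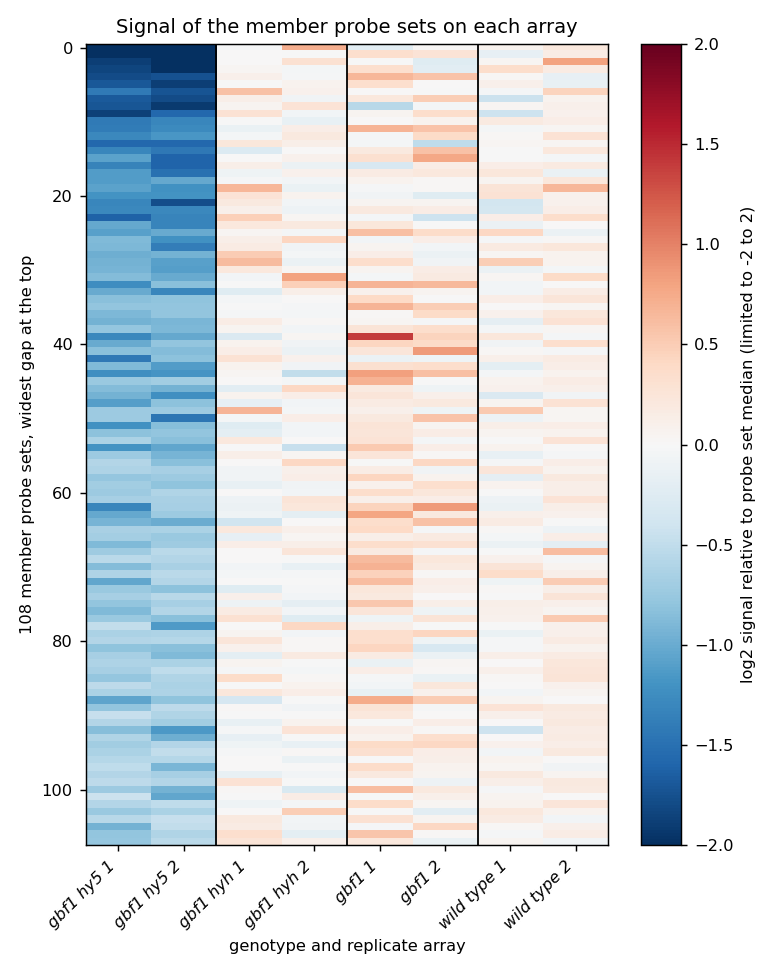
Log2 signal of the 108 members (rows, widest gap at the top) on each of the 8 arrays (columns, grouped by genotype), relative to the median of each probe set; colours stop at -2 and 2. Both gbf1 hy5 columns are blue in every row, which is how the rows were chosen, and gbf1 replicate 1 has the highest member median (0.20).

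The gap itself, from the higher gbf1 hy5 array up to the lowest of the other 6, had a median of 0.586, was at least 1 in 17 members and was under 0.5 in 35. The array that set the lower edge varied. It was a gbf1 hyh array in 25 members for each replicate, wild type replicate 1 in 22, gbf1 replicate 2 in 17, wild type replicate 2 in 10 and gbf1 replicate 1 in 9. The 2 gbf1 hy5 arrays differed from each other by a median of 0.142 over the members and 0.143 over all probe sets. The same rule turned upward takes 154 probe sets.

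Among members tied to 1 gene, the widest gap belonged to the gene of peroxidase 71 (PRX71, AT5G64120), a secreted class III peroxidase of the cell wall. Its signal was -2.11 and -2.26 in gbf1 hy5, 0.0061 and -0.0061 in gbf1 hyh, 0.34 and 0.28 in gbf1, and -0.16 and 0.15 in wild type. Its mean in gbf1 hy5 was thus 2.18 below wild type, while gbf1 hyh and wild type overlapped. XTH32 (AT2G36870) encodes a xyloglucan endotransglucosylase/hydrolase, an enzyme that cuts and rejoins hemicellulose chains of the wall. It was at -1.30 and -0.67 in gbf1 hy5, -0.12 and 0.22 in gbf1 hyh, 0.44 and 0.86 in gbf1, and -0.13 and 0.12 in wild type, so its gbf1 arrays were the highest of the 8.

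Relatives of these wall genes were looked up by name and compared between gbf1 hy5 and the other 3 genotypes with limma, a call being a Benjamini-Hochberg adjusted p under 0.05 over all probe sets. Over all probe sets 2.18% passed against wild type (1.11% lower, 1.06% higher), 4.45% against gbf1 (2.05% lower, 2.4% higher) and 2.77% against gbf1 hyh (1.02% lower, 1.76% higher). Before adjustment 12.3% of all probe sets had p under 0.05 against wild type, 17.2% against gbf1 and 14.1% against gbf1 hyh. Of 5 other genes named as numbered peroxidases 0 passed in any of the 3 comparisons, and before adjustment 0 had p under 0.05 against wild type or gbf1 and 1 against gbf1 hyh, where it was lower. Their differences from wild type lay between -0.13 and 0.32. Of 9 other XTH genes 0 passed in any of the 3. Before adjustment 3 of them had p under 0.05 against wild type, all higher, 2 against gbf1, 1 in each direction, and 3 against gbf1 hyh, 2 lower and 1 higher. The XTH differences from wild type lay between -0.25 and 0.76. These families were picked after the members were known, as were the IQ-domain, photosystem, aldehyde dehydrogenase and histone families below. The comparisons are those that the rule used, on the same arrays, and members were set aside before counting. For each of these families the counts are thus not independent of how the members were chosen.

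Other members with a gene symbol encode regulators. Only 10 members have a symbol other than the locus name, and they are sorted here by hand. The share of each kind of gene over all probe sets was not counted. UPB1 (AT2G47270, UPBEAT1) is a bHLH factor known for controlling peroxidase genes and the onset of elongation in the root. Its signal was -0.86 and -1.01 in gbf1 hy5, -0.047 and 0.81 in gbf1 hyh, -0.040 and 0.17 in gbf1, and 0.040 and 0.38 in wild type. The high gbf1 hyh value came from replicate 2, 1 of the arrays with high control signal. The gene tny (AT5G25810, TINY), which encodes an AP2/ERF-type transcription factor of the DREB group, was at -1.01 and -0.79 in gbf1 hy5, 0.068 and -0.068 in gbf1 hyh, 0.43 and 0.38 in gbf1, and -0.070 and 0.34 in wild type. Its gbf1 arrays again stood above all the others.

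BRH1 (AT3G61460), a RING-H2 protein gene named for its response to brassinosteroid, was at -0.61 and -0.66 in gbf1 hy5, -0.067 and 0.10 in gbf1 hyh, 0.14 and -0.067 in gbf1, and 0.25 and 0.067 in wild type. Here the other 3 genotypes overlapped. The gene iqd21 (AT3G49260) encodes an IQ-domain protein of a calmodulin-binding family and was at -0.94 and -0.49 in gbf1 hy5, 0.16 and -0.078 in gbf1 hyh, -0.029 and 0.42 in gbf1, and 0.029 and 0.094 in wild type. PRN (AT3G59220) encodes pirin, a protein known to bind the G-protein alpha subunit, and was at -0.43 and -1.04 in gbf1 hy5, -0.0029 and 0.14 in gbf1 hyh, -0.0094 and 0.10 in gbf1, and 0.057 and 0.0029 in wild type. In PRN the gbf1 hy5 replicates differed more than those of any other genotype (SD 0.429 in gbf1 hy5, 0.103 in gbf1 hyh, 0.0784 in gbf1 and 0.0379 in wild type, n = 2 each), and the gap of 0.42 rests on replicate 1.

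Of 14 other IQ-domain genes 0 passed in limma against wild type or gbf1 hyh; at an unadjusted p under 0.05 there were 0 against wild type and 2 against gbf1 hyh, 1 in each direction. Against gbf1, IQD22 was higher by 0.83 (SE 0.165, limma adjusted p = 0.0244). It was at -0.25 and -0.052 in gbf1 hy5, 0.39 and 0.068 in gbf1 hyh, -1.09 and -0.88 in gbf1, and 0.052 and 0.074 in wild type. The gbf1 arrays were thus the low ones, and both gbf1 hy5 arrays were below both wild type arrays. The IQD22 call ended in 7 of 16 alternatives, among them each fit without a wild type array, a gbf1 hy5 array or gbf1 replicate 1.

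**Figure D2:**
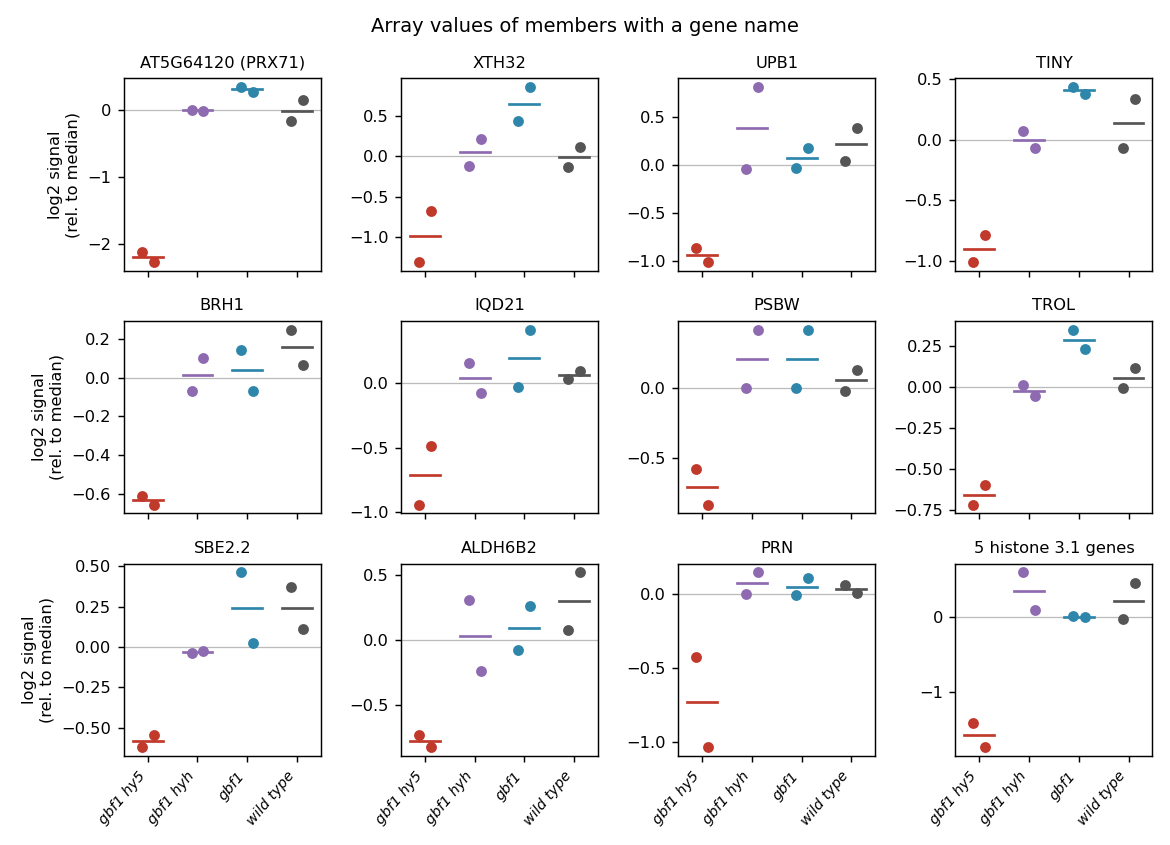
Array values (points, 2 per genotype) and genotype means (bars) of 11 members with a gene name and of the probe set shared by 5 histone H3.1 genes, as log2 signal relative to the probe set median, each panel with its own axis. Both gbf1 hy5 points are the lowest in each panel; both gbf1 points are the highest for PRX71, XTH32, TINY and TROL.

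Further nuclear genes with a symbol among the members encode chloroplast proteins. PSBW (AT2G30570), the small W subunit of photosystem II, was at -0.58 and -0.84 in gbf1 hy5, 0.0018 and 0.42 in gbf1 hyh, -0.0018 and 0.41 in gbf1, and -0.021 and 0.13 in wild type. Its high gbf1 hyh and gbf1 values both came from replicate 2, the arrays with high control signal. TROL (AT4G01050), the thylakoid rhodanese-like protein that anchors ferredoxin-NADP reductase to the membrane, was at -0.72 and -0.60 in gbf1 hy5, 0.0066 and -0.059 in gbf1 hyh, 0.35 and 0.23 in gbf1, and -0.0066 and 0.11 in wild type. SBE2.2 (AT5G03650), a starch branching enzyme that adds side chains to amylopectin, was at -0.62 and -0.54 in gbf1 hy5, -0.038 and -0.023 in gbf1 hyh, 0.46 and 0.023 in gbf1, and 0.37 and 0.11 in wild type. In SBE2.2 both gbf1 hyh arrays were below both wild type arrays (mean difference -0.27), which is near the 0.3 limit of the rule.

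A search by name found 2 other nuclear photosystem genes tied to a probe set, PSBY and PSAN, and could have missed others. Both were not taken by the rule and were compared in limma. The comparisons are those that the rule used, on the same arrays. They are thus not independent of how the members were chosen. PSAN, a lumenal subunit of photosystem I, fell by 0.81 in gbf1 hy5 against wild type (SE 0.171, limma adjusted p = 0.0486) and by 0.76 against gbf1 (adjusted p = 0.0407), and differed by -0.64 from gbf1 hyh without passing (adjusted p = 0.101). Its arrays read -0.74 and -0.69 in gbf1 hy5, -0.29 and 0.14 in gbf1 hyh, -0.0080 and 0.11 in gbf1, and 0.0080 and 0.18 in wild type, a gap of 0.396 that puts it just outside the members. Each of the PSAN calls ended in 8 of 16 alternatives, among them every fit without 1 array of wild type, gbf1 or gbf1 hy5 (adjusted p up to 0.373 against wild type and 0.235 against gbf1).

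PSBY, a small subunit of photosystem II, fell by 0.86 in gbf1 hy5 against gbf1 (SE 0.166, limma adjusted p = 0.0218). It did not pass against wild type (-0.50, adjusted p = 0.219) or gbf1 hyh (-0.47, adjusted p = 0.22). Its arrays were at -0.42 and -0.54 in gbf1 hy5, -0.056 and 0.036 in gbf1 hyh, 0.58 and 0.18 in gbf1, and -0.036 and 0.070 in wild type, so the gbf1 hy5 arrays were the lowest 2 without the full gap. The call against gbf1 ended in 6 of 16 alternatives, among them the fits without either wild type array, gbf1 replicate 1 or either gbf1 hy5 array (adjusted p up to 0.171).

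**Figure D3:**
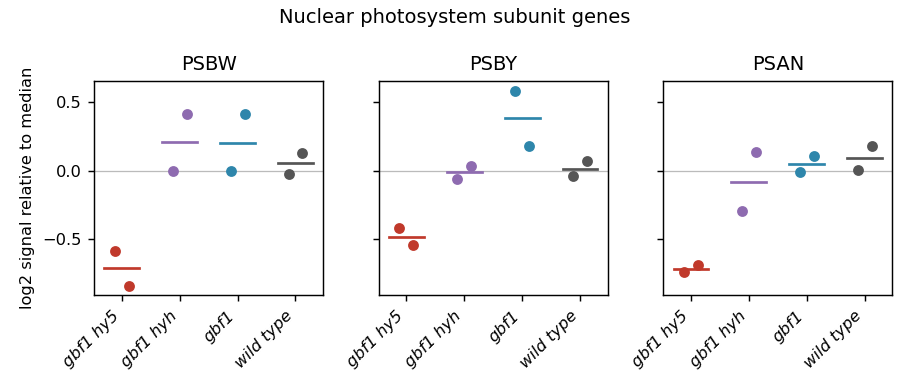
Log2 signal relative to the probe set median for PSBW, PSBY and PSAN, with 2 arrays (points) and the mean (bar) per genotype on 1 shared axis. The gbf1 hy5 arrays are the lowest in all 3 panels, between -0.84 and -0.42; only PSBW was taken by the rule.

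Metabolism added 1 named gene. ALDH6B2 (AT2G14170), a dehydrogenase of valine breakdown, was at -0.74 and -0.83 in gbf1 hy5, 0.31 and -0.24 in gbf1 hyh, -0.080 and 0.26 in gbf1, and 0.080 and 0.52 in wild type. Of 7 other aldehyde dehydrogenase genes 0 passed in limma in any of the 3 comparisons. Before adjustment 0 had p under 0.05 against wild type and 1 did against each of gbf1 and gbf1 hyh, lower in both. Their differences from wild type lay between -0.17 and 0.44.

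The probe set 250433_at matches 5 genes for histone H3.1, the replication-dependent form of histone H3, and cannot tell them apart (AT1G09200, AT3G27360, AT5G10390, AT5G10400 and AT5G65360). It was at -1.41 and -1.73 in gbf1 hy5, 0.59 and 0.090 in gbf1 hyh, 0.0061 and -0.0061 in gbf1, and -0.032 and 0.44 in wild type. Of 8 other histone genes with a probe set of their own, HTB11 fell in gbf1 hy5 against wild type and HTB1 and HTB2 rose. These HTB genes encode histone H2B. The rest of the 8 passed in none of the comparisons. HTB2 rose by 1.14 against wild type (SE 0.192, limma adjusted p = 0.019), by 1.32 against gbf1 (adjusted p = 0.00607) and by 1.59 against gbf1 hyh (adjusted p = 0.00292). Histone genes thus did not move in 1 direction.

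The HTB2 call against wild type ended without any 1 of the wild type or gbf1 hy5 arrays (adjusted p up to 0.187), and the other two HTB2 calls ended without gbf1 hy5 replicate 2 (adjusted p = 0.077 against gbf1 and 0.0506 against gbf1 hyh). HTB1 rose by 0.74 against wild type (SE 0.152, adjusted p = 0.0446 in limma), and this ended in 8 of 16 alternatives, among them the replicate block (adjusted p = 0.054) and every fit without a wild type, gbf1 hy5 or gbf1 hyh array (adjusted p up to 0.33). HTB1 was at 0.35 and 0.086 in gbf1 hy5 and at 0.37 and 0.41 in gbf1 hyh. In gbf1 it was at -0.29 and -0.086, and in wild type at -0.52 and -0.51. Both gbf1 hyh arrays of HTB1 thus stood above both gbf1 hy5 arrays. HTB11 was at -0.73 and -0.67 in gbf1 hy5, -0.28 and -0.74 in gbf1 hyh, 2.33 and 0.28 in gbf1, and 2.98 and 2.68 in wild type. It fell by 3.53 against wild type (SE 0.512, adjusted p = 0.00922 in limma), a call that ended without any 1 of the wild type or gbf1 hy5 arrays (adjusted p up to 0.0992), and its gbf1 hyh arrays overlapped those of gbf1 hy5, unlike the H3.1 probe set.

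The widest gap of all members, 3.76, was that of probe set 250815_s_at, which matches AT5G05040 and AT5G05060. Its arrays were at -3.98 and -3.99 in gbf1 hy5, -0.030 and 0.73 in gbf1 hyh, -0.21 and 0.030 in gbf1, and 0.065 and 0.22 in wild type. Both gbf1 hy5 values are more than 3 log2 units under every other array. The third probe set with several genes, 255895_at (AT1G17990 and AT1G18020), was at -1.23 and -1.17 in gbf1 hy5, 0.041 and -0.49 in gbf1 hyh, 0.82 and 0.61 in gbf1, and -0.041 and 0.070 in wild type.

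Most of the 12 genes with the widest gap have only a locus name in the tables used here, so no role is given for them. AT5G02540 was at -1.88 and -2.33 in gbf1 hy5, 0.014 and 0.30 in gbf1 hyh, -0.014 and -0.24 in gbf1, and 0.046 and 0.81 in wild type. AT5G26200 was at -1.84 and -2.02 in gbf1 hy5, 0.044 and -0.044 in gbf1 hyh, 0.33 and -0.21 in gbf1, and 0.36 and 0.17 in wild type. Both were lower than wild type by over 2 log2 units in the mean, like PRX71.

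In AT1G78460 the gbf1 hy5 arrays read -1.68 and -1.79, the gbf1 hyh arrays 0.12 and -0.076, the gbf1 arrays 0.21 and 0.49, and the wild type arrays -0.42 and 0.076. AT3G52740 had -1.07 and -1.61 in gbf1 hy5, 0.0026 and 0.092 in gbf1 hyh, 0.32 and 0.77 in gbf1, and -0.0026 and -0.032 in wild type. In both, the gbf1 arrays were the highest. In the other 7 of the 12 genes the difference of gbf1 hy5 from wild type was -1.63 in AT4G15690, -1.60 in AT4G10910 and AT2G16365, -1.47 in AT5G35970, -1.38 in AT5G25840, -1.35 in AT2G03980 and -1.21 in AT5G02160.

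Among the 58 members without a gene, the widest gaps were those of 252123_at and 249063_at. The first was at -1.80 and -1.74 in gbf1 hy5, 0.10 and -0.023 in gbf1 hyh, 0.66 and 0.57 in gbf1, and 0.023 and -0.17 in wild type. The second was at -1.69 and -1.88 in gbf1 hy5, -0.0011 and 0.067 in gbf1 hyh, 0.34 and 0.0011 in gbf1, and 0.097 and -0.15 in wild type. At the narrow end, the 3 genes just inside the gap limit were iqd21 (0.408), AT1G15730 (0.413) and AT1G73480 (0.415), and the 3 just outside were PSAN (0.396), AT1G18460 (0.394) and AT2G48130 (0.391).

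The comparison of gbf1 with wild type, which asks what the loss of GBF1 alone does, was not used directly to choose members, though the gap holds the gbf1 arrays above those of gbf1 hy5 and the wild type arrays enter both conditions. No member passed the limma test in it, where 0.418% of all probe sets did (0.193% lower, 0.224% higher). Before adjustment 15 of the 108 members (13.9%) had p under 0.05, 14 of them higher and 1 lower in gbf1, beside 8.74% of all probe sets, and the lowest adjusted p was 0.104. The split by direction was not counted over all probe sets, and the gap condition limits how low a gbf1 array can be. The members' differences lay between -0.56 and 0.83 with a median of 0.075, and 73 of 108 were above 0. Over all probe sets the median was 0.0058 and 51.2% were above 0.

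In gbf1 hyh against gbf1, which asks what the further loss of HYH does, 2 of 108 members (1.85%) passed, both lower in gbf1 hyh, where 2.51% of all probe sets passed (1.5% lower, 1.01% higher). The members' share of calls is thus near the background. Before adjustment 25 of the 108 (23.1%) had p under 0.05, 22 of them lower and 3 higher in gbf1 hyh, beside 14.3% of all probe sets. That split by direction was not counted over all probe sets either, and the limit on low gbf1 values applies here too. The probe set 255895_at fell by 0.94 (SE 0.190, limma adjusted p = 0.0364). Probe set 262635_at, which has no gene in the table, was at -0.34 and -0.0088 in gbf1 hyh and at 0.75 and 0.51 in gbf1, and fell by 0.81 (SE 0.172, limma adjusted p = 0.0462). Neither call held in every fit with 1 array left out. The first ended without either wild type array, either gbf1 array, either gbf1 hy5 array or gbf1 hyh replicate 2, and without both arrays of high control signal (adjusted p = 0.0795), and over its alternatives the adjusted p ran between 0.0178 and 0.24. The second ended without any 1 array (adjusted p over its alternatives between 0.0346 and 0.243).

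The members' median difference of gbf1 hyh from gbf1 was -0.12, and 75 of 108 were below 0. Over all probe sets the median was 0.021 and 53.6% were above 0. This comparison shares the gbf1 arrays with the one before it. The rule also ties gbf1 hyh to wild type, so the 2 comparisons show largely the same gbf1 values.

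**Figure D4:**
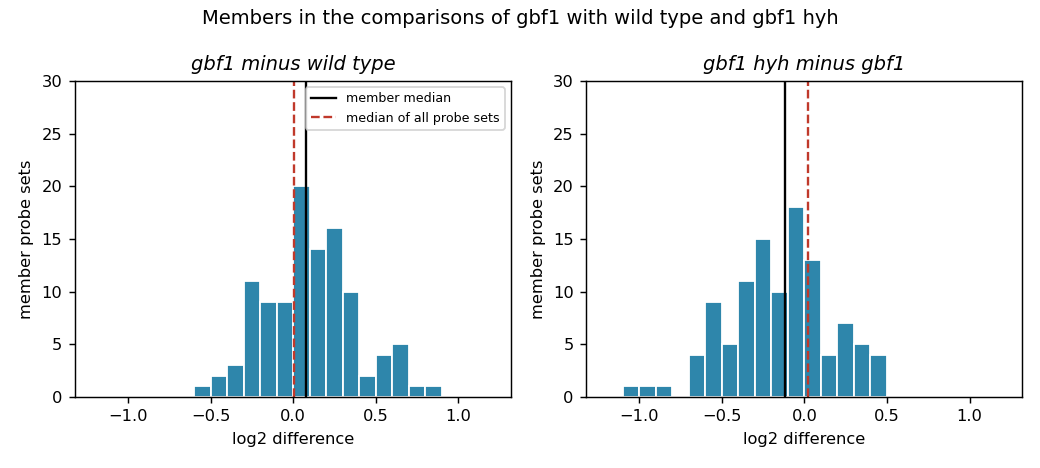
Histograms of the log2 differences of the 108 members in gbf1 minus wild type (left) and gbf1 hyh minus gbf1 (right), in bins of 0.1, with the member median (solid line, 0.075 and -0.12) and the median of all probe sets (dashed line, 0.0058 and 0.021). Both panels spread to either side of 0.

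In 28 of 108 members (25.9%) both gbf1 arrays were above both gbf1 hyh arrays and both wild type arrays. This held for 8.1% of all probe sets, and for 8.42% of the 17782 probe sets whose gbf1 hyh mean was within 0.3 of wild type. The opposite order, with both gbf1 arrays below, was found in 8 members (7.41%), against 8.88% of all probe sets and 9.57% of those within 0.3. The gap condition limits how low a gbf1 array can be but not how high, and no test is given for these shares. Without gbf1 replicate 2 the count of 28 is 53, and without both arrays of high control signal it is 55. It is 38 without gbf1 replicate 1, 33 or 36 without a wild type array, and 29 without either gbf1 hyh array. With fewer arrays to meet the condition the count cannot fall, but why the rises differ in size was not tested. The shares of all probe sets were not recomputed for these settings.

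Of those 28 members, 13 are tied to 1 gene: PRX71, AT1G78460, AT3G52740, AT2G46910, tny, AT1G73650, AT1G52070, AT3G57020, TROL, XTH32, AT3G08920, AT4G22460 and AT1G54740. XTH32 had the largest difference of these between gbf1 and wild type, 0.65 (SE 0.241), and it did not pass (limma adjusted p = 0.459). PRX71 differed by 0.32 (SE 0.154, limma adjusted p = 0.618) and TROL by 0.23 (SE 0.139, limma adjusted p = 0.714). So in no single gene of this group was gbf1 distinguished from wild type by the test.

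Other genes of the light response were taken from 7 lists (light signalling, nuclear photosynthesis, flavonoids, nutrient assimilation, auxin with gibberellin and growth, carbon metabolism, and the clock). Of their 249 genes 20 were tied to a probe set, none of them from the clock list, and 18 of the 20 remained beside the members PSBW and SBE2.2. Most genes of each list were therefore not seen. Whether any of them are among the members without a gene cannot be told, so the counts below do not stand for whole pathways. The counts come from the comparisons that the rule used, with members set aside, and are not independent of that choice. In limma 2 of the 18, HYH and PSAN, fell in gbf1 hy5 against wild type, and 3, HYH, PSAN and PSBY, fell against gbf1. Against gbf1 hyh, which is itself mutant in HYH, HYH was higher by 0.97 (SE 0.166, limma adjusted p = 0.0166) and no other passed. That call ended in 4 of 16 alternatives: after quantile normalisation, where the difference was 0.53 (adjusted p = 0.16), and when gbf1 hyh replicate 1 or 1 of the gbf1 hy5 arrays was left out (adjusted p up to 0.174). The remaining 3 nuclear photosynthesis genes, RCA, ATPC1 and PRK, differed from wild type by between -0.16 and -0.05. In limma 0 of the 4 flavonoid, 2 nutrient, 3 growth and 2 other carbon genes passed in any of the 3 comparisons. At an unadjusted p under 0.05 there were 3 of these 11 against wild type, all higher, and 2 against gbf1, both higher. Against gbf1 hyh there were 2, 1 in each direction. Over all probe sets the unadjusted shares were 12.3%, 17.2% and 14.1% (against wild type, gbf1 and gbf1 hyh).

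Of 71 markers for root and root hair, seed, dividing cells, vessels and epidermis, 6 were tied to a probe set. Whether any of the rest are among the members without a gene cannot be told. The comparisons with gbf1 hy5 are again those that the rule used. In limma 0 of the 6 passed in gbf1 hy5 against wild type, and 0 had an unadjusted p under 0.05. Against gbf1 the root-hair expansin gene EXPA7 fell by 1.18 (SE 0.235, limma adjusted p = 0.0246), a call that ended in 4 of 16 alternatives (adjusted p up to 0.163), among them the fits without gbf1 replicate 2 or either gbf1 hy5 array. Its relative EXPA18 fell by 1.71 (SE 0.161, limma adjusted p = 0.000659). EXPA18 was at -0.30 and -0.34 in gbf1 hy5, 0.30 and 0.66 in gbf1 hyh, 1.37 and 1.41 in gbf1, and -0.50 and -0.68 in wild type, so the gbf1 arrays stood highest here too and gbf1 hy5 was not below wild type. Against gbf1 hyh EXPA18 fell by 0.80 (SE 0.161, limma adjusted p = 0.0332), a call that ended in 7 of 16 alternatives (adjusted p up to 0.234), among them the fits without either wild type array, either gbf1 hy5 array or gbf1 hyh replicate 2. The markers CLV3, SPCH, MUTE and FAMA did not pass in any of the 3. At an unadjusted p under 0.05 there were 2 of the 6 against gbf1, EXPA7 and EXPA18, both lower. Against gbf1 hyh there were 2 as well, EXPA18 and FAMA, both lower. FAMA differed by -0.72 from gbf1 hyh (SE 0.182, limma adjusted p = 0.0815). The part of such cells in the members' values was not tested.

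The 47 member genes lie on all 5 nuclear chromosomes. Chromosome 5 holds 14 of them (29.8%) and 22.5% of the 13367 probe sets tied to a nuclear gene, and chromosome 4 holds 4 (8.51%) and 14.7%. HY5 lies on chromosome 5 and GBF1 on chromosome 4. Within 50 genes on either side of HY5 in gene order there was no member among 53 probe sets, which are 0.396% of those tied to a nuclear gene. Within 200 genes there was 1 (AT5G12050) among 188, or 2.13% of the member genes beside 1.41% of all such probe sets. Within 500 genes there were 2 of the 47 (AT5G12050 and AT5G08560; 4.26%), beside 3.39% of all such probe sets. No member lay within 500 genes of GBF1, a stretch with 370 probe sets (2.77% of all such probe sets). With 47 member genes, the absence of a member there says little. No 2 members were next to each other, and the nearest pair, tny and AT5G25840, was 3 places apart. How far apart as many other measured genes would lie was not counted.

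**Figure D5:**
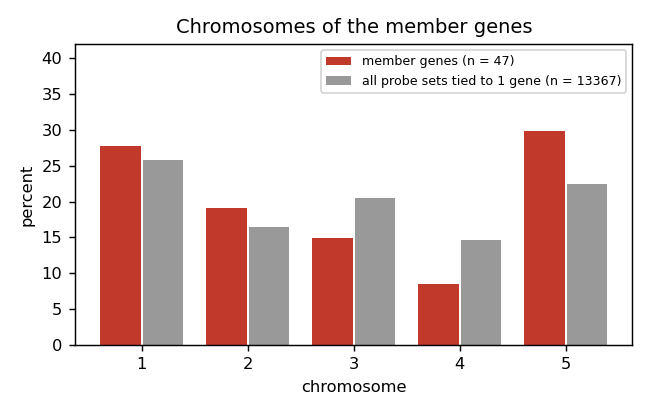
Share of the 47 member genes (red) and of all 13367 probe sets tied to a nuclear gene (grey) on each of the 5 chromosomes, in percent. The member share is the higher one on chromosomes 1, 2 and 5, and the lower one on 3 and 4.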

How the data were processed

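RNA of 8 seedling samples was measured on Affymetrix arrays. Per the series design text the authors analysed them in GeneSpring with RMA, which is also named per the submitters' processing notes, without a version. The deposited values are treated here as log2 signals, since that is RMA's usual output; the base is not given in the sources used here. Each probe set is centred on its median over the 8 arrays (largest absolute median 5e-07), so no level is left, and no filter on dim probe sets was possible. Genotypes come from the labels. In limma 3.58.1 (R 4.3.3) 1 model of 4 genotype means took in all 8 arrays, with no replicate block. Calls had a Benjamini-Hochberg adjusted p under 0.05 over 22746 probe sets. The number of arrays limits the precision. The fit was tested on simulated data.

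Gene names and gene order come from the platform's probe table and a RefSeq table of TAIR10.1. No gene of a member had another probe set of its own. Named are the members with a symbol, the 12 with the widest gap, those called, those in a list and those at the gap limit; where a list gene was called, it is named too. Members and lists were chosen with earlier results of these data known. Of the listed symbols, 3 (CHI, PEP and FDH) name another gene in the RefSeq table and were left out. Promoter motifs and sequences were not analysed here. The alternatives were other normalisations, a robust prior, array weights, fewer genotypes, arrays left out, a replicate block and other limits of the rule.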

Additional observations from a re-analysis of the deposited data

How the results depend on the processing

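The count of members called lower in gbf1 (0) was the same in all 16 alternatives, and that of members called higher in gbf1 hyh against gbf1 (0) as well. The count of members higher in gbf1 against wild type (0) became 1 without both arrays of high control signal. The 2 members lower in gbf1 hyh against gbf1 became 1 after quantile normalisation and 0 with only the 2 compared genotypes in the model, with array weights and with only probe sets tied to 1 gene, and between 0 and 1 with 1 array left out. List genes and markers called in gbf1 hy5 against wild type (2) were 1 with a robust prior or only probe sets tied to 1 gene, and between 1 and 2 with 1 array left out. Against gbf1 (5) they were 2 when the model held just the 2 genotypes, and between 2 and 6 with 1 array left out. Against gbf1 hyh (2) they were 1 with quantile normalised values, when the model held just the 2 genotypes, or without both arrays of high control signal, and between 0 and 3 with 1 array left out. The cause of these moves was not tested. With the replicate block the counts were 0 and 0 in gbf1 against wild type, 2 lower and 0 higher in gbf1 hyh against gbf1, and 2, 6 and 2 list genes and markers (against wild type, gbf1 and gbf1 hyh); the replicate differences correlated between -0.11 and 0.34 over pairs of genotypes, so the numbers were not taken to pair the samples, and of the calls named, that of HTB1 ended under the block. The rule takes 165 probe sets with a gap of 0.3, 53 with 0.6, 74 with a tolerance of 0.2, 131 with 0.5, 104 after quantile normalisation (89 of them among the 108) and 110 with arrays centred on their median. The alternatives for the list genes, for the order of the gbf1 arrays and for the rule without the arrays of high control signal were chosen after seeing the data.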
